A study of Mus musculus with 8 samples.

Results

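The Zfp genes of the mouse are zinc finger genes named by a running number. They were taken here as all probe sets of the array with exactly 1 gene symbol in the platform annotation that starts with Zfp followed by a digit. This rule gave 368 probe sets of 235 genes, among 22511 probe sets on the array after 64 control probe sets were set aside. Of these 368, 272 (73.9%, 194 genes) were bright enough to be tested, against 58.7% of all probe sets. The other 96 stood below the median of their array on at least 7 of the 8 arrays. For 41 genes no probe set was bright enough.

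Most of these genes encode proteins with rows of C2H2 zinc fingers, each finger a short loop that holds a zinc ion and reads a few bases of DNA. Many also carry a KRAB domain, which binds the corepressor Trim28 and through it histone methyltransferases, deacetylases and heterochromatin proteins, and such proteins silence transposable elements and keep some imprints. Others of the same name have no KRAB domain and serve in neural development or in other steps of gene control. Many of the genes lie in clusters of related genes, so a probe set may also read a related gene.

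RNA came from the brains of T9H/+ heterozygous mice, which carry 1 copy of a reciprocal translocation between chromosomes 7 and 15. The maternal-7 samples had a maternal duplication of proximal chromosome 7 with a paternal duplication of proximal chromosome 15. The paternal-7 samples had the reverse. Each kind was measured once in neonatal cortex (forebrain), neonatal cerebellum, whole brain of 15.5 dpc embryos and whole brain of 13.5 dpc embryos (dpc, days post coitum), which made 8 arrays and 4 pairs with no replicate in any cell of the design. Both kinds of sample therefore carry the translocation and a duplication, and no sample without them was analysed here. The labels give neither the number of animals behind a sample nor the breakpoints. P-values thus reflect how far the arrays depart from the fitted model, which may be technical spread. The neonatal samples were dissected regions and the embryonic samples whole brains, so stage and region cannot be told apart in any contrast between them.

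Chromosome 7 held 92 of the 368 member probe sets (25%) and 60 of the 235 genes, against 6.99% of all probe sets with a known chromosome. Chromosome 17 followed with 45 probe sets of 31 genes, chromosome 13 with 31 of 23 genes, and chromosome 15 had 9 of 6 genes. In gene order, 51 of the 60 chromosome 7 genes lay between the proximal end and Ube3a and 9 beyond it. Ube3a served as a landmark and not as the breakpoint. Snhg14, a paternally expressed noncoding RNA just beyond Ube3a, read 0.262 to 33.9 signal units on the maternal-7 arrays and 667 to 2372 on the paternal-7 arrays for its brightest probe set. The 2 kinds of array were thus told apart by this gene as their labels name them, and at least this stretch lies within the duplication.

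The proximal members form runs of neighbours. Zfp607b, Zfp60, Zfp626 and Zfp59 follow each other with no other coding gene between them, as do Zfp420, Zfp27, Zfp383 and Zfp74. RefSeq promoter windows of GRCm38.p6 were found for 190 of the 235 member genes. The 250 bases before the start site are shown for 4 proximal chromosome 7 members that were lower on the paternal-7 array of every pair, and for Zfp804a, a neural member of chromosome 2 with a large change with stage. They are written 5′ to 3′ along the gene, with the CG dinucleotides in capitals.
Zfp939 (chr7:39449261-39449510, plus strand): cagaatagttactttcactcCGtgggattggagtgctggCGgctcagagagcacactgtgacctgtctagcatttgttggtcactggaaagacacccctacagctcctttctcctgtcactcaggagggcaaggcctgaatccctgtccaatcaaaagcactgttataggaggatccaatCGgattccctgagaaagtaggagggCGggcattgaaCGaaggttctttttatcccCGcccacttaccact
Zfp619 (chr7:39517516-39517765, plus strand): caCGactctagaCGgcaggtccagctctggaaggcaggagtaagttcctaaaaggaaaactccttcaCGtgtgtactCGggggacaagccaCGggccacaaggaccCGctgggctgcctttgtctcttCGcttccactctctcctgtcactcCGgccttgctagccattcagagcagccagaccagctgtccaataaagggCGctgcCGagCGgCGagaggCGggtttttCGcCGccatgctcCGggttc
Zfp74 (chr7:29954066-29954315, minus strand): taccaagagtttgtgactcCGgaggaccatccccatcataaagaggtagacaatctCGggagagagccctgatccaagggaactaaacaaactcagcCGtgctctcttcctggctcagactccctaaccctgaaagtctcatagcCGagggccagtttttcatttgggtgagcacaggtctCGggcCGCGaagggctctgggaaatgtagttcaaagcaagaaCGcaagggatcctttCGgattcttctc
Zfp60 (chr7:27731159-27731408, plus strand): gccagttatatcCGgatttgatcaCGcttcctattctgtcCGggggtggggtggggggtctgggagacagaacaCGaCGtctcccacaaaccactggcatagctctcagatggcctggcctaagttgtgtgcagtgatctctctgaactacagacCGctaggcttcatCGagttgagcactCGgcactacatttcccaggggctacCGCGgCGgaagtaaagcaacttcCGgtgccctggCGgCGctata
Zfp804a (chr2:82053408-82053657, plus strand): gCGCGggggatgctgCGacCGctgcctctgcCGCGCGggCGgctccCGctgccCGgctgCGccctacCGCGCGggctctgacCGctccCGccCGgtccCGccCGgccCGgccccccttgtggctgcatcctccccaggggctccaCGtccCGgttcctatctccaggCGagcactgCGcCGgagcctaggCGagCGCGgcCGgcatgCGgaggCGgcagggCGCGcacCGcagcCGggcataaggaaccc

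The 250 bases held 6 CG dinucleotides in Zfp939, 16 in Zfp619, the next member along the chromosome, 9 in Zfp74, 14 in Zfp60 and 35 in Zfp804a. Windows of 300 bases, from 250 before to 50 after the start, held a median of 16 CG dinucleotides over the 233 promoters of members (lower and upper quartile 9 and 22) and 7 over all 32851 promoters (3 and 20). The median was also 16 over the 65 promoters of chromosome 7 members. The hexamer TGCCGC, the core of the site read by the imprint-keeping protein ZFP57, was searched on both strands. It was present in 41 of the 233 promoters of members (17.6%), in 4 of the 65 of chromosome 7 members (6.15%) and in 11.6% of all promoters. None of the 4 proximal windows shown holds it, and that of Zfp804a holds it 2 times. Over all members lower on the paternal-7 array of every pair, 9 of 55 promoters held it (16.4%). Letters in a window show no binding, and methylation was not measured.

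Signals are MAS5 values on a linear scale. A tested member had a mean signal over the 8 arrays of 583 at the median, against a median of 527 over all tested probe sets. Where a gene had several probe sets they are lettered from the brightest, A, downwards. The brightest members were Zfp771 A with a mean of 6477, Zfp445 with 5907, Zfp512 with 5647, Zfp580 with 4226 and Zfp637 with 3546. Zfp445, a KRAB zinc finger protein that keeps imprints, read from 4780 to 7301 over the 8 arrays. Zfp771 A read from 4941 to 7715. Probe sets differ in their binding to RNA, so these values do not rank the genes by abundance.

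By the mean of each context's 2 arrays, 101 of the 272 tested members (37.1%) were highest in 13.5 dpc brain, 86 (31.6%) in 15.5 dpc brain, 53 (19.5%) in cortex and 32 (11.8%) in cerebellum. Over all tested probe sets the shares were 41.1%, 23.7%, 17.1% and 18.1%. Members thus had their highest mean in 15.5 dpc brain more often, and in cerebellum less often, than the shares over all probe sets, a difference in shares that was not tested.

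Between stages, 54 members of 49 genes changed, 14 higher and 40 lower in the neonatal than in the embryonic samples (limma, Benjamini-Hochberg adjusted p under 0.05 over all 13221 tested probe sets). That is 19.9% of the tested members, against a background of 30.7% of all tested probe sets. Higher calls made up 5.15% of members against 14.3% of all, and lower calls 14.7% against 16.4%. The largest rises were those of Zfp385b B, Zfp804a and Zfp575, and the largest falls those of Zfp593, Zfp750 and Zfp217. The median difference over the members was -0.16 on the log2 scale, with the same -0.16 over all tested probe sets, so 137 of 272 members stood below that common median. The split depends on the scaling of the arrays. It was 22 higher and 33 lower after quantile normalization (20.2% of members, against 26.8% of all). After centring each array on its median it was 27 higher and 17 lower (16.2%, against 26.1%). That centring moved the median of all probe sets to 0.02. For Zfp804a A and Zfp593 the difference is therefore also given relative to the median of all tested probe sets, and for Zfp184 only so. The other stage differences below are given without that adjustment.

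**Figure D1:**
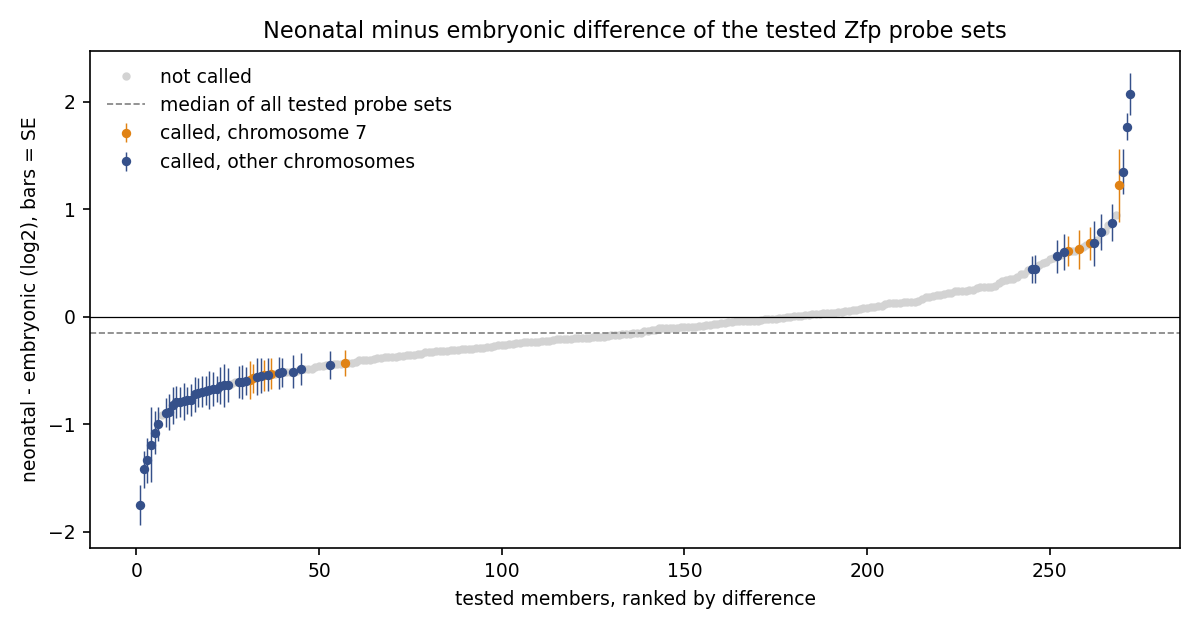
Neonatal minus embryonic difference (log2, y axis) of the 272 tested members, ranked along the x axis. Grey points did not pass the test, coloured points did (14 higher and 40 lower), bars are standard errors, and the dashed line is the median of all tested probe sets at -0.16.

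Signals below are given for the maternal-7 array first and the paternal-7 array second. Zfp804a encodes a zinc finger protein whose human counterpart is tied to schizophrenia risk by association studies. Its probe set Zfp804a A (probe set 1443036_at) read 2083 and 1896 in cortex, 1526 and 1141 in cerebellum, 662 and 550 at 15.5 dpc, and 345 and 278 at 13.5 dpc. The neonatal and embryonic arrays did not overlap, and the order of the contexts was the same under both duplications. The difference between stages was 1.77 ± 0.13 (SE; adjusted p = 0.00066 by limma), or 1.92 relative to all probe sets. Zfp804a B, which read 199 to 340 in the neonatal samples and 15.1 to 197 in the embryonic ones, rose by 1.35 ± 0.21 as well (adjusted p = 0.0049). 

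Zfp385b B (probe set 1436731_at) read 634 and 827 in cortex, 449 and 508 in cerebellum, 125 and 56.6 at 15.5 dpc and 101 and 109 at 13.5 dpc. All 4 embryonic signals lay below the median of their array, so the difference of 2.07 ± 0.19 (adjusted p = 0.0012) stands for a neonatal signal at least 2.18-fold higher. Such bounds divide the geometric mean of the bright arrays by that of the dim ones, with each dim signal raised to its array median where it lay below it. The other tested probe set of this gene, Zfp385b A, read 525 to 694 on the 8 arrays and stood at 0.01 ± 0.13. Zfp385b C was too dim to be tested. The change was thus read by 1 of the 2 tested probe sets of Zfp385b.

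Zfp451 A, from a gene whose protein attaches the small modifier SUMO to other proteins, read 2807 to 3762 in the neonatal samples and 1242 to 2450 in the embryonic ones. It rose by 0.87 ± 0.17 (adjusted p = 0.012) with no overlap between stages, while Zfp451 B stood at 0.04 ± 0.15 and Zfp451 C at 0.61 ± 0.20. Zfp580, a bright proximal member of chromosome 7, read 4453 to 6464 in the neonatal and 2642 to 3808 in the embryonic samples, with a difference of 0.68 ± 0.15 (adjusted p = 0.018, and 0.45 without passing the test after quantile normalization). Zfp597 B rose by 0.79 ± 0.17, Zfp846 B by 0.68 ± 0.21, Zfp28 A by 0.63 ± 0.18, Zfp941 B by 0.61 ± 0.14 and Zfp711 B by 0.60 ± 0.17. Zfp365 B, from a gene whose protein binds the neuronal scaffold Disc1, rose by 0.56 ± 0.15, and its partner probe set Zfp365 A stood at 0.50 without passing the test.

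Zfp593 (probe set 1447703_x_at) is the counterpart of a yeast protein that helps to export the large ribosomal subunit. It read 136 and 179 in cortex, 169 and 218 in cerebellum, 1015 and 676 at 15.5 dpc, and 567 and 711 at 13.5 dpc. The neonatal signals lay below the median of their arrays and all embryonic ones above it. The difference was -1.76 ± 0.19 (adjusted p = 0.0016; -1.60 relative to all probe sets), and the embryonic signal was at least 3.12-fold higher. 

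Zfp217, whose human counterpart is an oncogene that works with corepressor complexes, was bright at 1 age only. It read 694 and 648 at 13.5 dpc, 66.6 and 29.6 at 15.5 dpc, 156 and 33.0 in cortex, and 34.5 and 19.7 in cerebellum. Both 13.5 dpc arrays lay above the array median and all 6 others below it. Zfp750, known as a regulator of skin differentiation, was also highest at 13.5 dpc with 656 and 1029, against 306 and 266 at 15.5 dpc, 175 and 262 in cortex and 94.9 and 97.5 in cerebellum. The stage difference was -1.34 ± 0.21 for Zfp217 (adjusted p = 0.0051) and -1.42 ± 0.17 for Zfp750 (adjusted p = 0.0023).

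Zfp184 read 324 to 829 in the neonatal and 937 to 1153 in the embryonic samples, and fell (adjusted p = 0.0054) to -0.85 ± 0.16 relative to the median of all tested probe sets. Zfp664 A read 1419 to 1825 against 2488 to 3370, with a fall of 0.79 ± 0.14 (adjusted p = 0.0085), and neither gene's stages overlapped. Zfp820 was below the array median in all neonatal samples, and its embryonic signal was at least 1.14-fold higher. Zfp882 A fell by 0.90 ± 0.13, Zfp518a by 0.89 ± 0.17, Zfp652 A by 0.82 ± 0.17, Zfp516 A by 0.80 ± 0.15 and Zfp595 B by 0.79 ± 0.17. Zfp516 is known as an activator of the brown fat gene Ucp1.

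All 4 probe sets of Zfp618, whose protein works with the modified-cytosine reader Uhrf2, were lower in the neonatal samples. The differences were -0.60 for Zfp618 A, -0.61 for B, -0.71 for C and -1.19 for D, and D did not pass the test after quantile normalization or median centring. Zfp618 A read 1044 to 1613 in the neonatal and 1550 to 2681 in the embryonic samples, with an overlap between the stages. Of the 63 genes with 2 or more tested probe sets, 43 had 1 sign over all of them in this contrast and 24 had a call, but all probe sets were called in only 3 of these, Zfp618, Zfp804a and Zfp516. Where signs differed, Zfp652 A fell by 0.82 and Zfp652 B stood at 0.25, and Zfp266 C fell by 0.68 while Zfp266 B stood at 0.15.

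**Figure D2:**
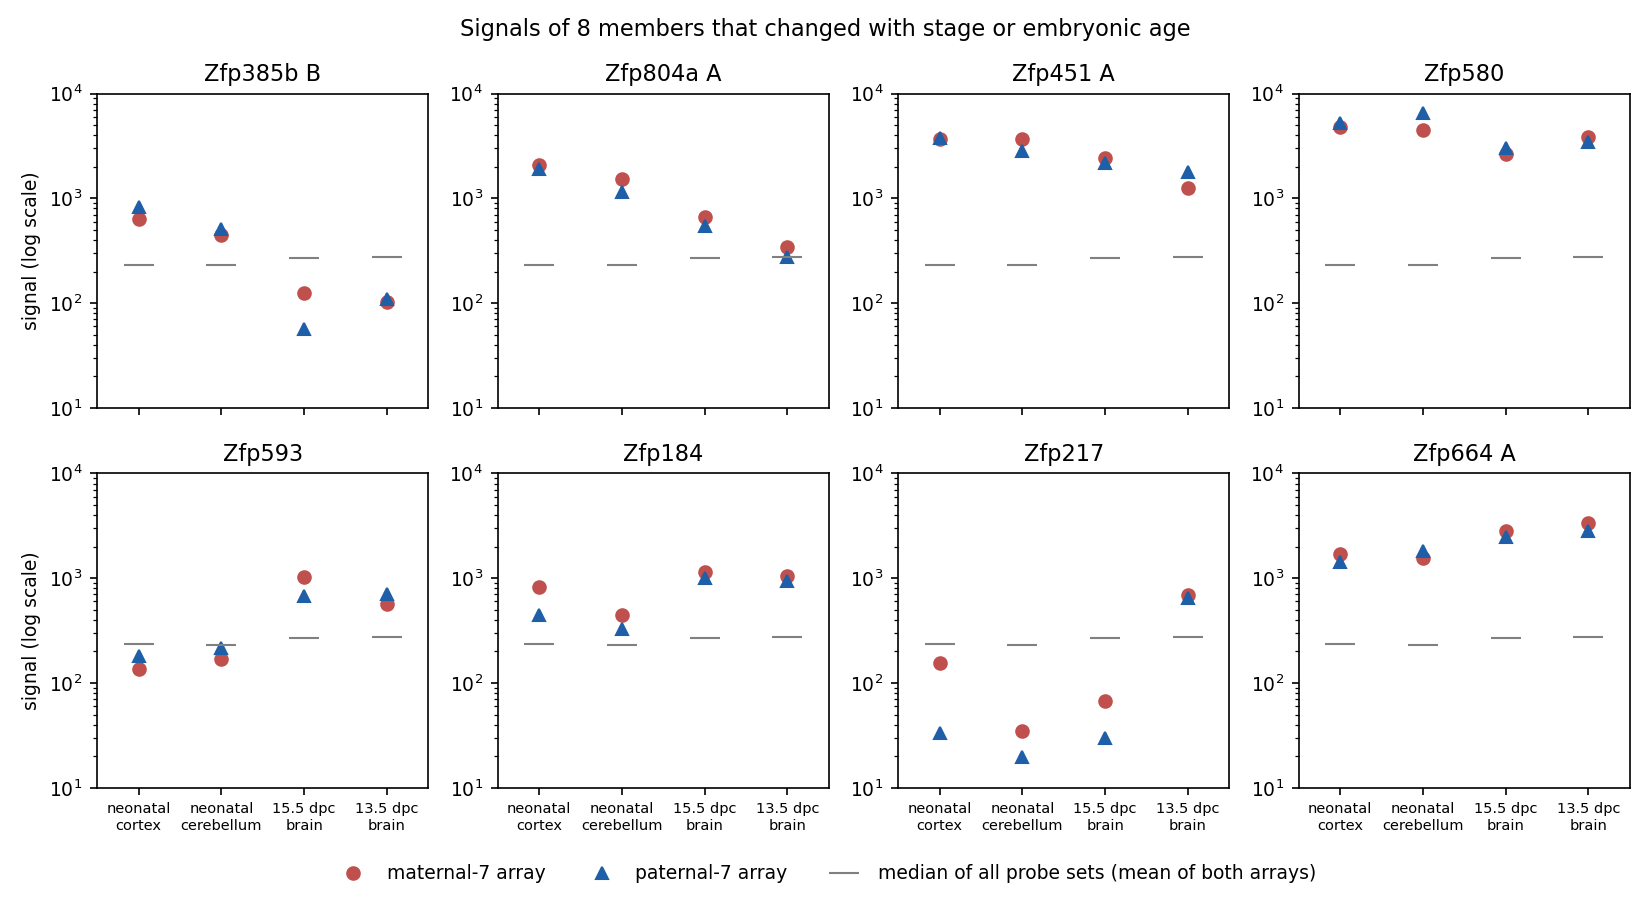
Signal (y axis, log scale) of 8 members in each context (x axis) on the maternal-7 array (circles) and the paternal-7 array (triangles), with the median of all probe sets as a grey bar. Zfp385b B, Zfp804a A, Zfp451 A and Zfp580 were higher in neonatal samples, Zfp593, Zfp184 and Zfp664 A in embryonic ones, and Zfp217 stood above the array median at 13.5 dpc alone.

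All 4 neonatal arrays lay above all 4 embryonic arrays for 14 members (5.15%, against 11.8% of all tested probe sets) and below them for 41 (15.1%, against 16.5%). By chromosome, members of chromosome 7 gave 4 higher and 5 lower calls among 73 tested, with a median of -0.10, and members elsewhere 10 higher and 35 lower among 199, with a median of -0.17. The 21 tested members of chromosome 13, singled out after their values were seen, gave 6 lower calls and no higher one, against the background of 16.4% lower and 14.3% higher, and 16 of them stood below the median of all tested probe sets, with a median of -0.30. Zfp184, Zfp595 B, Zfp58, Zfp748, Zfp493 and Zfp874a were those that fell. Other chromosomes also gave lower calls and no higher one. Among them were chromosome 4 (5 among 12 tested, median -0.37) and chromosome 8 (4 among 14, median -0.35). Members of chromosome 2 gave 4 higher calls and 1 lower among 13. Leaving out the 13.5 dpc pair left 11 members called (4.17%, against 10.2% of all tested probe sets). Without that pair 15 of the named differences no longer passed the test. Among them were the rises of Zfp804a B (0.69), Zfp451 A (0.57), Zfp846 B (0.27), Zfp711 B (0.11) and Zfp941 B (0.13). The falls of Zfp518a (-0.49), Zfp516 A (-0.50), Zfp652 A (-0.39), Zfp750 (-0.74) and Zfp618 D (-0.21) were others. Without the cortex pair 17 named calls were lost, counting those between embryonic ages. The stage differences of Zfp365 B (0.36) and Zfp618 D (-0.73) were among them. Without the cerebellum pair 18 were lost by the same count, among them the stage difference of Zfp941 B (0.27). The number of members called was 15 when the cerebellum pair was left out (5.60%, against 15.8% of all). It was 16 without the cortex pair (6.06%, against 15.0%) and 58 without the 15.5 dpc pair (21.8%, against 34.4%).

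Some cell type markers moved with stage and others did not. Neither choroid plexus marker, Ttr or Kcnj13, was called. By their brightest probe sets, 1 of the 5 measured cortex neuron markers was called, Emx2, which fell, and none of the 3 measured cerebellum markers. Of the 8 cell cycle markers listed 2 were measured, Mcm5 and Top2a, and both fell in the neonatal samples, with a summed signal of 771 to 1306 against 1994 to 5873. All 3 tested astrocyte markers, Aqp4, Slc1a2 and Slc1a3, rose, and their summed signal was 10643 to 12459 against 3908 to 7040. No marker of oligodendrocytes or blood was measured, and of the 8 progenitor markers Rfx4 alone, which rose. The part of these cell types in the members' changes was not tested, and fewer cells of a type and less RNA per cell cannot be told apart in such samples.

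The partners of KRAB proteins were measured for 6 of 18 listed genes. Trim28, the corepressor that KRAB domains bind, read 15893 to 16724 in the neonatal and 21427 to 29448 in the embryonic samples and fell by 0.62 ± 0.12 (adjusted p = 0.012). Hdac2, a histone deacetylase, fell by 0.63 ± 0.13 (adjusted p = 0.014). Atrx, a chromatin remodeller, rose by 0.46 ± 0.13 (adjusted p = 0.041). Dnmt1, Chd3 and Atf7ip did not pass the test, at -0.22, -0.12 and 0.25 for their brightest probe sets. None of the 6 was called between duplications, regions or embryonic ages.

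Members known from neural development were measured for 10 of 18 listed genes, of which 9 were tested, and by each gene's brightest probe set only Zfp804a was called between stages. Zfp335, a gene of human microcephaly, stood at -0.40, Zfp521 at -0.26 and Zfp369 at -0.27. Zfp24 A stood at -0.92 without passing the test, and its arrays disagreed strongly, at 134 and 689 in cortex. Zfp462, a gene of a human neurodevelopmental disorder, had 3 probe sets between -0.16 and 0.24. Zfp536, a repressor of neuronal differentiation that lies on proximal chromosome 7, stood at 0.34 for probe set A and 0.48 for B. Zfp703 lay below the median of every array. Of the genes listed for imprints and the early embryo, Zfp445 stood at 0.31 and Zfp809, a silencer of retroviruses in early embryos, at -0.39, and neither passed the test. None of the 4 listed CCCH genes, the Zfp36 family of RNA-binding proteins, had a probe set among the members.

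Between the embryonic ages 9 members of 8 genes changed, 6 higher and 3 lower at 15.5 than at 13.5 dpc, which is 3.31% of the tested members against a background of 6.59%. The shares were 2.21% higher against 3.52% of all and 1.10% lower against 3.07%. Both 15.5 dpc arrays lay above both 13.5 dpc arrays for 62 members (22.8%, against 22.5%) and below them for 51 (18.8%, against 24.1%). Zfp217 changed most. It fell by 2.80 ± 0.29 (adjusted p = 0.010), and its 13.5 dpc signal was at least 2.51-fold higher. Zfp750 fell by 1.36 ± 0.24 (adjusted p = 0.030). Zfp862-ps, a pseudogene by its symbol, read 488 and 538 at 15.5 dpc against 1106 and 1215 at 13.5 dpc and fell by 1.09 ± 0.21 (adjusted p = 0.035).

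The 6 probe sets that rose belong to 5 genes. Zfp804a A rose by 0.85 ± 0.18 (adjusted p = 0.044), so that its signal was ordered 13.5 dpc, 15.5 dpc, cerebellum, cortex, although cortex and cerebellum did not differ past the threshold (0.57). Zfp804a B rose by 1.31 ± 0.29 with both ages below the array median, and did not pass the test after quantile normalization or median centring. Zfp607b, a proximal chromosome 7 member, read 1166 and 1339 at 15.5 dpc and 638 and 706 at 13.5 dpc, a difference of 0.84 ± 0.17 (adjusted p = 0.041). Zfp941 B, a distal chromosome 7 member, rose by 0.95 ± 0.20. Zfp551 and Zfp558 B, both below the array median at 13.5 dpc, were at least 1.17-fold and 1.24-fold higher at 15.5 dpc. Zfp558 A stood at 0.88 and Zfp941 A at 0.32 without passing the test. The count of 9 fell to 2 without the cortex pair (0.758% of members, against 2.21% of all). It was also 2 without the cerebellum pair (0.746%, against 1.80%). It was 4 when signals were floored at 1 with no pseudocount (1.47%, against 3.47%).

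Between cortex and cerebellum no member passed the test (limma), against 0.325% of all tested probe sets. At an unadjusted p under 0.05, 12 members were higher in cortex (4.41%, against 4.03% of all) and 3 lower (1.10%, against 3.62%). Some region markers differed between the regions. Of the 5 measured cortex neuron markers, Neurod2, Bcl11b and Slc17a7 were higher in cortex, and of the 3 measured cerebellum markers Tfap2b was higher in cerebellum, at -4.10. The other cerebellum markers did not pass the test: Zic1 stood at 0.05, with means of 4965 in cortex and 4616 in cerebellum, and Lhx9 at -1.16.

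The largest difference was that of Zfp853 (probe set 1447921_at), which read 88.5 and 74.7 in cortex and 515 and 468 in cerebellum. In the embryonic brains it read 92.6 and 117 at 15.5 dpc and 237 and 60.2 at 13.5 dpc, so both cerebellum arrays stood above all 6 others. The difference was -1.97 ± 0.36 (adjusted p = 0.138), the cerebellum signal was at least 2.11-fold higher, and the call was made at an adjusted p of 0.037 without the 13.5 dpc pair. Zfp618 D stood at -0.93 ± 0.49, Zfp941 B at -0.67 ± 0.20 and Zfp521, a gene of neural progenitors, at -0.56 ± 0.22. On the cortex side Zfp668 A read 1052 and 1028 in cortex and 670 and 591 in cerebellum (0.68 ± 0.18, adjusted p = 0.343). The 3 probe sets of Zfp462 stood at 0.46, 0.46 and 0.52. Zfp948 and Zfp729a B had the largest positive values, 1.09 and 1.02, and each rests on a low signal in the maternal-7 cerebellum, 65.1 and 54.7, against 318 and 275 in the paternal-7 cerebellum. Zfp397 A stood at 0.67 and Zfp184 at 0.61. Zfp865 C, Zfp292 A and Zfp950 B lay below the array median on both cerebellum arrays, and their cortex signals were at least 1.21-fold, 1.02-fold and 1.42-fold higher, none past the threshold.

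Between the duplications no member passed the test (limma), against 0.00756% of all tested probe sets, 1 probe set in all. The smallest adjusted p of a member was 0.532. At an unadjusted p under 0.05, 8 members were higher (2.94%, against a background of 4.14% of all) and 27 lower (9.93%, against 4.53%) on the paternal-7 arrays. The members leaned to lower paternal-7 values: 56 of 272 (20.6%, 52 genes) were lower in 4 of 4 pairs, against 9.08% of all tested probe sets, and 13 (4.78%) were higher in 4 of 4, against 9.67%. The median difference was -0.09, against 0.01 over all tested probe sets, and 174 of 272 members stood below 0 (64.0%, against 48.1% of all).

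By pair, the median over members was -0.12 in cortex and -0.03 in cerebellum, and at 15.5 and 13.5 dpc it was -0.10 each, against -0.01 to 0.03 over all tested probe sets. The lean was seen in all 4 pairs and was smallest in cerebellum. Counting each gene once, by its brightest probe set, 45 of 194 genes (23.2%) were lower in every pair, against 8.83% of all. Over the normalizations, pseudocounts, filters and left-out pairs run, the members' median stayed between -0.13 and -0.07, below that of all probe sets each time. Related members may share a probe set's reading, so their values may not be independent, and no test was made over the list.

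Some non-members stood below 0 as well, and others above it, and none of those named here passed the test. The 3 measured cerebellum markers, Tfap2b, Zic1 and Lhx9, stood at -0.39, -0.60 and -0.91 by their brightest probe sets, and their summed signal was 6694 to 13347 on maternal-7 and 4223 to 12084 on paternal-7 arrays. The progenitor marker Rfx4 stood at -0.55. Both measured choroid plexus markers, Ttr and Kcnj13, stood at -0.22 and -0.39, and both cell cycle markers, Mcm5 and Top2a, at -0.05 and -0.49. Of the 5 cortex neuron markers 2 stood above 0, among them Slc17a7 at 0.34, and Emx2 stood at -0.49. Of the 3 tested astrocyte markers 1 stood above 0, Aqp4 at 0.43, and so did the mesenchyme marker Dcn, at 0.36. Of the 6 KRAB partners 4 stood below 0, among them Atrx at -0.32, and Trim28 stood at 0.00. Their part in the members' lean was not tested.

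**Figure D3:**
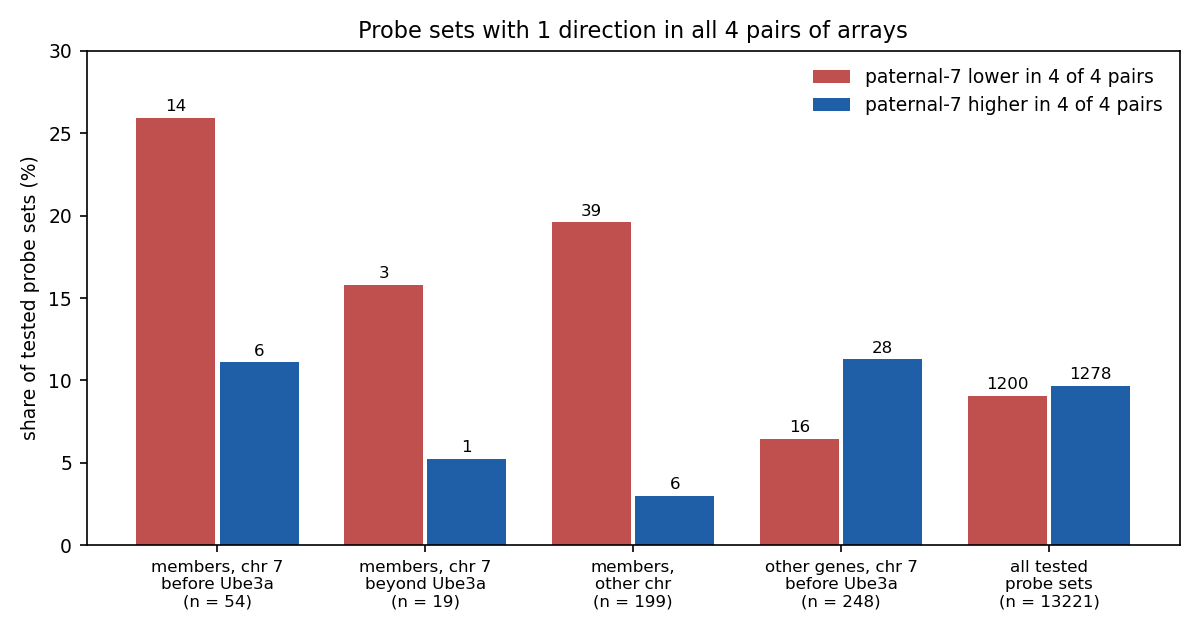
Share of tested probe sets (y axis, percent) that were lower (red) or higher (blue) on the paternal-7 array in all 4 pairs, for members by place, for other chromosome 7 genes before Ube3a and for all tested probe sets. Numbers on the bars are probe sets. Lower shares stood at 25.9%, 15.8% and 19.6% in the 3 groups of members and at 9.08% over all.

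Members of chromosome 7 and those elsewhere differed little between the duplications. The median was -0.06 over the 73 tested members of chromosome 7 and -0.10 over the 199 elsewhere. Their difference was 0.04, with an SD of 0.07 over the 4 contexts, and it turned to -0.02 without the 15.5 dpc pair. By pair, the chromosome 7 median was -0.11 for cortex and -0.03 for cerebellum, and for the embryonic brains -0.08 (13.5 dpc) and 0.03 (15.5 dpc), so it was above 0 at the later age. Within chromosome 7, the 54 members before Ube3a had a median of -0.08, with 0.04 at 15.5 dpc, and the 19 beyond it 0.02. Of these 19, 12 stood above 0, against 195 of the 383 other tested probe sets beyond Ube3a. The 248 other tested probe sets before Ube3a had a median of 0.05, so the proximal members stood below their neighbours. Before Ube3a, 14 of 54 members were lower in all 4 pairs (25.9%) and 6 higher (11.1%). Among the 248 neighbours the counts were 16 (6.45%) and 28 (11.3%). Elsewhere 39 of 199 members were lower (19.6%) and 6 higher (3.02%). These counts were not tested against each other.

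**Figure D4:**
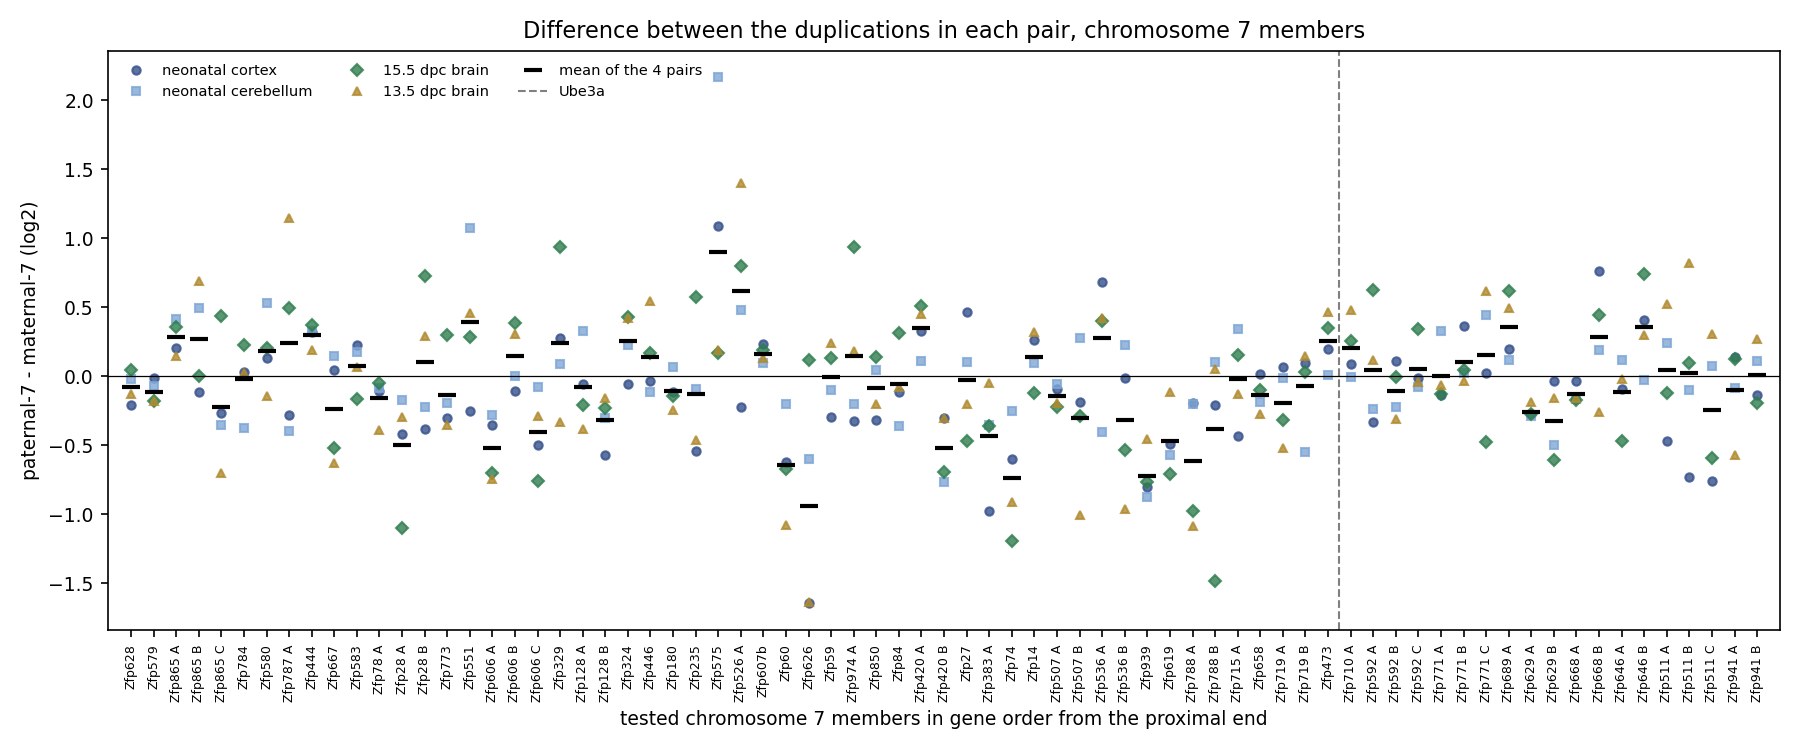
Paternal-7 minus maternal-7 difference (log2, y axis) of each of the 73 tested chromosome 7 members in gene order (x axis), with a symbol for each of the 4 pairs and a bar for their mean. The dashed line marks Ube3a. Most pairs lie within 0.5 of 0, and Zfp60, Zfp74, Zfp939 and Zfp619 lie below 0 in all 4 pairs.

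Zfp939 (probe set 1444092_at), whose promoter is shown above, read 789 and 427 in cortex, 757 and 387 in cerebellum, 983 and 554 at 15.5 dpc, and 582 and 408 at 13.5 dpc. All 4 maternal-7 arrays lay above all 4 paternal-7 arrays. The difference was -0.72 ± 0.14 (unadjusted p = 0.0011, adjusted p = 0.532). Zfp619, the next member along the chromosome, read 495 and 335, 432 and 271, 565 and 323, and 477 and 435 in the same order of contexts, a difference of -0.47 ± 0.15, and the arrays overlapped.

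Zfp74 (probe set 1453230_at) read 883 and 563 in cortex, 734 and 608 in cerebellum, 645 and 249 at 15.5 dpc, and 709 and 350 at 13.5 dpc. The 2 groups of arrays did not overlap, and the difference was -0.74 ± 0.18 (adjusted p = 0.532). Zfp383 A, its neighbour, stood at -0.43 and was lower in all 4 pairs, whereas Zfp27, the next gene, stood at -0.03 and was lower in 2. Zfp60 read 1994 and 1275 in cortex, 2012 and 1743 in cerebellum, 2217 and 1372 at 15.5 dpc, and 1907 and 874 at 13.5 dpc, with no overlap between the groups and a difference of -0.64 ± 0.17 (adjusted p = 0.535). Of its neighbours, Zfp607b was higher in all 4 pairs (0.16), Zfp59 stood at -0.01, and Zfp626 had the lowest value of chromosome 7, -0.94 ± 0.31, but was higher at 15.5 dpc. Adjacent genes of a cluster thus went both ways.

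Probe sets of 1 gene also went both ways. Zfp420, which encodes a KRAB protein that restrains p53, was higher in all 4 pairs by probe set A (0.35 ± 0.14) and lower in all 4 by probe set B (-0.52 ± 0.15). Zfp606 A and C stood at -0.52 and -0.41 and were lower in all 4 pairs, while Zfp606 B stood at 0.15. Zfp28 A stood at -0.50 and was lower in all 4 pairs, while Zfp28 B stood at 0.10. Over the 63 genes with 2 or more tested probe sets, 29 had 1 sign between the duplications (46.0%), against 43 between stages (68.3%).

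The other proximal members lower in all 4 pairs were Zfp788 A (-0.61), Zfp128 B (-0.32), Zfp78 A (-0.16), Zfp507 A (-0.14) and Zfp579 (-0.11). Those higher in all 4 pairs were Zfp575, Zfp420 A, Zfp444, Zfp865 A, Zfp473 and Zfp607b. Zfp444 read 1502 and 1890 in cortex, 1866 and 2356 in cerebellum, 1735 and 2262 at 15.5 dpc and 1841 and 2105 at 13.5 dpc, with no overlap and a difference of 0.30 ± 0.12 (adjusted p = 0.574). Zfp575 read 152 and 389 in cortex, 111 and 703 in cerebellum, 74.2 and 90.4 at 15.5 dpc, and 76.7 and 96.0 at 13.5 dpc. It lay above the array median only on the 2 neonatal paternal-7 arrays, so its rise with stage (1.22 ± 0.34, adjusted p = 0.035) also rests on these. Beyond Ube3a the differences ran from -0.33 for Zfp629 B to 0.35 for Zfp689 A, where Zfp689 A was higher in all 4 pairs and Zfp629 A and B and Zfp668 A were lower in all 4.

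Of the 6 members of chromosome 15, whose proximal part is duplicated in the reverse direction, 5 were tested. Zfp707 was lower in all 4 pairs (-0.25 ± 0.13), and Zfp647 stood at -0.22, Zfp41 at -0.13, Zfp622 A at 0.05 and Zfp251 at 0.08. Zfp572 lay below the array median on every array.

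Off chromosomes 7 and 15, Zfp799 read 1860 and 837 in cortex, 1422 and 582 in cerebellum, 1644 and 1145 at 15.5 dpc, and 1373 and 1341 at 13.5 dpc. Its groups of arrays did not overlap, and the difference was -0.71 ± 0.22 (adjusted p = 0.535). Zfp618 D had the lowest value of all members, -1.23 ± 0.35, and read 649 and 77.9 at 15.5 dpc, whereas the 3 brighter probe sets of Zfp618 ran from -0.13 to 0.06. Zfp292 A lay below the array median on all paternal-7 arrays and was at least 1.11-fold higher on the maternal-7 ones. Its fitted difference was -0.81, and -0.48 without the 13.5 dpc pair. Zfp518a and Zfp558 A stood at -0.66, and Zfp874a at -0.66. Zfp938 read 313 and 448, 406 and 529, 394 and 571, and 563 and 789 in the 4 contexts, a difference of 0.43 ± 0.12, higher in each pair. Zfp948 stood at 0.96 ± 0.29 and Zfp991 at 0.57 ± 0.22, or 0.32 without the 15.5 dpc pair. Zfp563 at 0.36 (0.23 without the 13.5 dpc pair), Zfp385b A at 0.26 and Zfp469 at 0.22 completed the members that were higher in all 4 pairs outside chromosome 7.

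**Figure D5:**
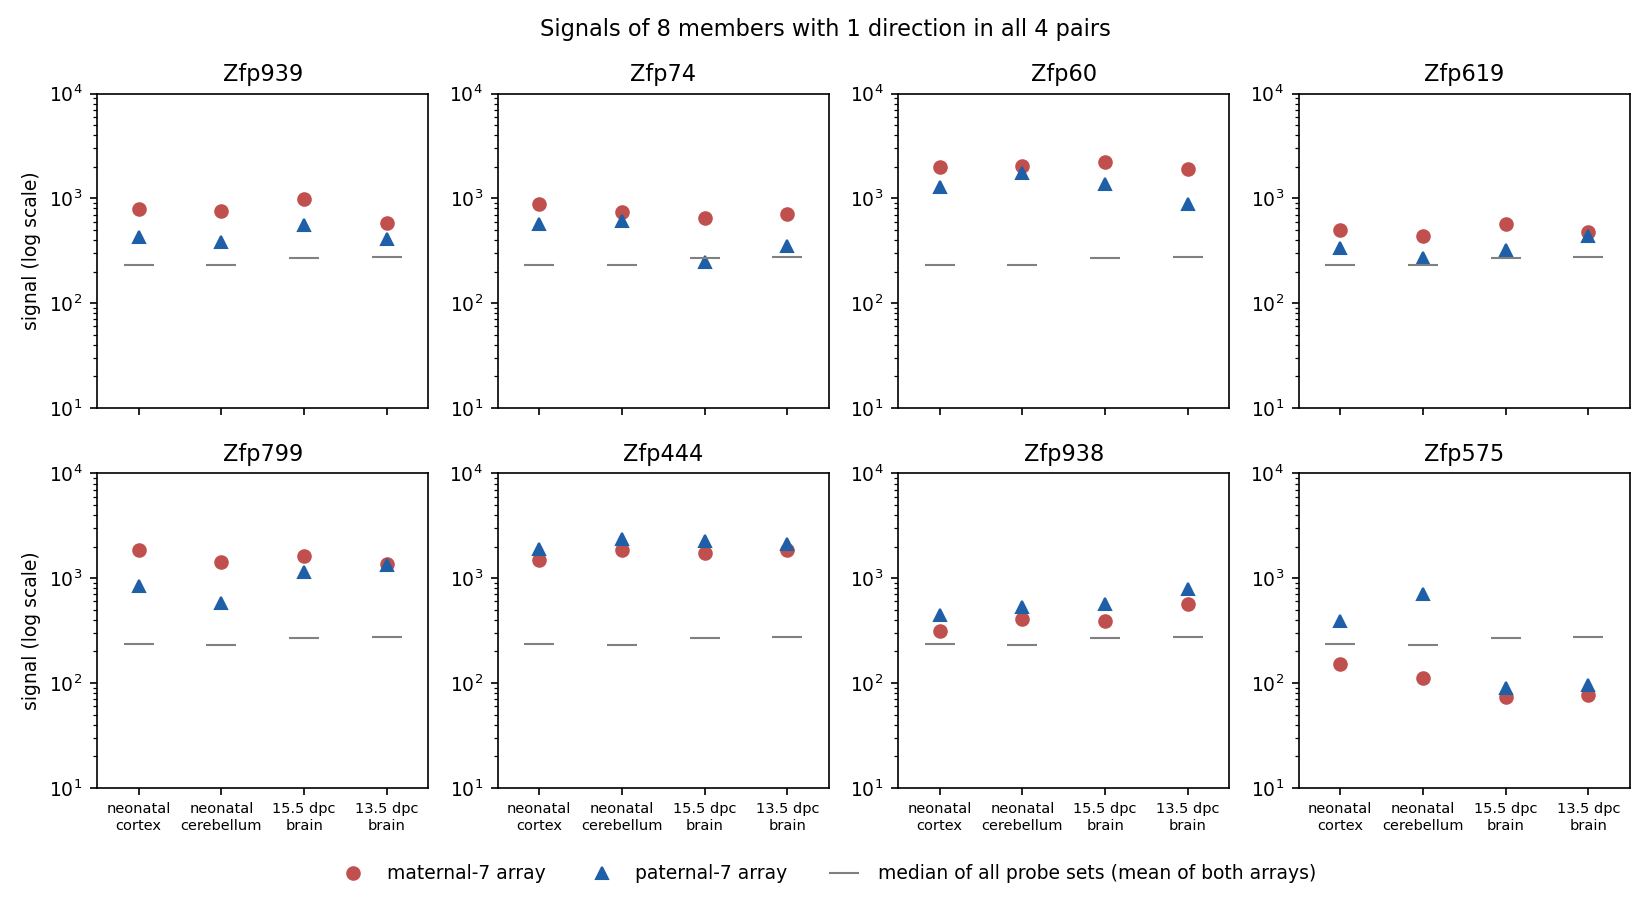
Signal (y axis, log scale) of 8 members with 1 direction in all 4 pairs, by context (x axis), on the maternal-7 array (circles) and the paternal-7 array (triangles), with the median of all probe sets as a grey bar. Zfp939, Zfp74, Zfp60, Zfp619 and Zfp799 were lower on the paternal-7 array of each pair, and Zfp444, Zfp938 and Zfp575 higher.

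The difference between the duplications was not shown to depend on stage for any member. The test of neonatal against embryonic duplication effects called no member and 0% of all probe sets (limma), with 27 members (9.93%) at an unadjusted p under 0.05 against 9.14% of all, and a smallest adjusted p of 0.494 among members.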

How the data were processed

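The authors deposited signal intensities on a linear scale, 1 value per probe set and array, which per the submitters' processing notes come from MAS5, with no version stated. Per the labels, RNA of each sample was labelled with biotin and hybridised to 1 Affymetrix 430B array. Depth has no meaning for arrays, and their number limits the precision. Gene symbols came from the platform annotation, and chromosomes and gene order from the RefSeq gene table of GRCm38.p6, which held all 235 member genes. The files name no build, and positions are printed only for RefSeq promoter windows.

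Signals were transformed as log2(signal + 58.5), the pseudocount being the 20th percentile of an array's signals, taken as the median of the 8 arrays, so differences of dim probe sets are understated. Probe sets above the array median on at least 2 of 8 arrays were tested with limma 3.58.1 in R 4.3.3 in a model with context and duplication (3 residual degrees of freedom; 2 for the duplication effect by stage), with Benjamini-Hochberg adjustment over all tested probe sets, and the fit was tested on simulated data. In the simulated data a log2 change of 1 was called for 32% of the changed probe sets between regions and 26% between embryonic ages. The share was 65% between stages and 84% between duplications. The simulated noise was independent between arrays, so these shares need not hold for the real data. There the brightest probe set of Snhg14 differed by 4.42 between the duplications and was not called (adjusted p = 0.0595 by limma). A missing call in any of these contrasts is thus no sign of equal signals. ± is the moderated SE. Named members were the 12 largest calls in each direction of a contrast or, where fewer than 5 members were called, the 10 largest differences with 1 sign in every pair, with the members of chromosomes 7 and 15, of the gene lists, of genes with several probe sets and the 5 brightest. Members and lists were chosen with earlier results of these data known. Protein sequences were not used here, so fingers were not counted. Alternatives covered scaling, pseudocount, filter, probe sets per gene, and pairs left out.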

Additional observations from a re-analysis of the deposited data

How the results depend on the processing

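No member passed the test between the duplications, or in the duplication effect by stage, under any alternative run. The 54 members called between stages became 31 when dim probe sets were kept (8.42%, against 14.5% of all). With a pair left out they were 11 to 58 (4.17% to 21.8%, against 10.2% to 34.4%). The 9 calls between embryonic ages became 4 when signals were floored at 1 with no pseudocount (1.47%, against 3.47% of all). They became 1 with no filter (0.272%, against 0.920%). Among probe sets above the array median on all 8 arrays they were 14 (7.53% of members, against 14.3% of all), and 2 were among the 9. Without the cortex pair 2 were called (0.758%, against 2.21%), and without the cerebellum pair 2 (0.746%, against 1.80%). Between cortex and cerebellum 0 to 1 members were called with an embryonic pair left out. The 1, without the 13.5 dpc pair, was 0.379% of members, against 0.280% of all. The difference in medians between chromosome 7 and other members ran from -0.019 (without the 15.5 dpc pair) to 0.047 with a pair left out. The count of members lower in every pair, 56, became 35 with the strict filter (18.8% of members, against 9.82% of all). With a pair left out it was 65 to 79 (24.6% to 29.5% of members, against 13.6% to 15.3% of all). It was 99 without both embryonic pairs (39.3% of 252 members, against 28.4% of all), an alternative chosen after seeing the data. The count of members higher in every pair, 13, became 21 with no filter (5.71% of members, against 9.92% of all). With a pair left out it was 23 to 25 (8.58% to 9.47% of members, against 14.95% to 18.55% of all). Without both embryonic pairs it was 48 (19.05% of members, against 28.8% of all). Where pairs are left out, fewer pairs have to share a sign. None of the 73 named values reversed, but they were chosen as calls or for 1 sign in every pair, so their signs were little free to change. Of the 73, 14 lost their call with no filter. The number was 17 without the cortex pair and 18 without the cerebellum pair. It was 15 without the 13.5 dpc pair, where only the calls between stages could be compared. The cause of the other shifts was not tested. Fits without an embryonic pair give no contrast of ages, and fits without a neonatal pair none of regions. The arrays are paired by context, which is a term of the model throughout; without it no member passed the test between the duplications either. Signal over background limits the 96 members that were not tested.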
